A study of Homo sapiens with 8 samples.

Results

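The 56 genes described here code for the proteins that license replication origins, open the DNA helix, copy both strands, supply the nucleotides and repack the new DNA in chromatin. They were chosen by name, as the non-control features of the array whose gene name is one of the 56. Of the 36337 gene names on the array all 56 were found, with 72 of the 50599 probes. A single probe stood for 42 of the genes, 2 probes for 12 and 3 probes for 2, and where there were several the one brightest on average was used. The genes fell into 9 for origin recognition and licensing, 19 for the helicase and its activation, 9 for the polymerases, 11 for the clamp, its loader, single-strand cover and joining, 5 for nucleotide supply and 3 for histone deposition.

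RNA came from DLD1 cells, an established human colorectal cancer cell line with the CpG island methylator phenotype. They carried either a non-targeting siRNA (siCONT) or 1 of 2 siRNAs against UHRF1 for 48 h, after which TSA (trichostatin A, a histone deacetylase inhibitor) at 300 nM or the solvent ethanol (mock) was added for 24 h. UHRF1 brings the maintenance DNA methyltransferase to newly replicated DNA, and the study asked how its depletion and HDAC inhibition change expression alone and together. Each siRNA condition was combined with each agent, which gave 4 groups of 2 one-colour arrays. In a depletion group the 2 arrays carried the 2 different siRNAs, which served as its replicates. The 2 siCONT arrays of an agent differed about as much as repeated spots of 1 array do (1.18 and 1.09 times the spot noise, against 12.7 and 10.5 times between the siRNAs), so they counted as 1 sample wherever a mean is given, and siCONT means have no SD. Nothing states that they came from separate cultures, and p-values then measure only the spread between these arrays, which may be technical.

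Each replication origin is marked by the origin recognition complex (ORC), on which CDC6 and CDT1 load the MCM2-7 ring in G1 phase. In S phase the kinase CDC7 with activator DBF4, together with TOPBP1, MCM10, CDC45 and the GINS complex, turns the ring into a working helicase. Polymerases alpha, delta and epsilon copy DNA behind the helicase, and the PCNA clamp holds polymerase delta. Most of these genes are transcribed as cells pass from G1 into S phase, under transcription factors of the E2F family, and their RNA is therefore a usual marker of proliferation in epithelial tumour cells. In RNA of a whole culture, fewer cells in S phase and less RNA per cell cannot be told apart.

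Levels are log2 intensities with the 75th percentile of their array subtracted. A level of 0 is therefore that percentile, and levels of different genes are not comparable. The share of probes detected over background ran from 43.3% to 48.0%, and all arrays shared 1 slide and 1 scan. On that slide mock and TSA occupied different rows, and siCONT and UHRF1 depletion lay in different columns, so neither treatment can be told apart from slide position. The targeted gene was lower as labelled: the brighter UHRF1 probe had levels of 1.98 and 2.01 in siCONT with mock and 0.34 and -0.02 after depletion, a change of -1.83, and it fell further to -1.55 and -2.14 with depletion plus TSA. In siCONT with TSA it had levels of 1.04 and 1.01, a change of -0.97 that missed 2-fold, and the second UHRF1 probe was called lower there, at -1.13. All 9 colon epithelial markers, such as EPCAM, KRT18 and CDX2, were above background in every group. Markers of other cell types were mostly near background in siCONT with mock. Of 6 fibroblast markers COL1A1 was above background on both arrays of each TSA group, while COL1A2 and COL3A1 were below it on all arrays. PDGFRB was above it on both arrays of depletion with mock and 1 of siCONT with TSA, and on no other. DCN and LUM were each above it on 1 array of the combination and on no other. Of 3 endothelial markers VWF and CDH5 were above background in all groups but siCONT with mock and PECAM1 in none. Of the leukocyte markers reported, CD14 was above background in every group and PTPRC and CD3E in none. The log2 of the summed level was -2.18, -1.88, -1.03 and -0.12 for fibroblasts and -2.64, -1.20, -0.07 and 0.72 for endothelium in siCONT with mock, depletion with mock, siCONT with TSA and the combination, against 10.54 to 10.91 for the epithelial list. Such sums can be compared between groups within a list and not between lists, as levels of different genes are not comparable. In siCONT with mock no fibroblast or endothelial marker was above background on both arrays. The part of these markers in the results was not tested.

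Because 38 of these genes were called lower with the combination, the bases before their starts are shown first. E2F factors bind sites of the kind TTTCCCGC, TTTGGCGC, TTTGCCGC and TTTCGCGC, which were searched on both strands of windows from 250 bases before to 50 bases after each RefSeq start (GRCh38.p14). Windows were given for 50 of the 56 genes, 66 windows in all because some genes have several starts. An E2F-type match stood in 25 of these 66 windows (37.9%) and in 1164 of all 35116 windows (3.31%), and at least 1 window of 25 of the 50 genes held one. The CCAAT box, a common promoter element bound by NF-Y, stood in 51.5% of the windows of these genes and in 34.6% of all windows. The 11 genes with a single window and an E2F-type match wholly before the start are printed below as 60 bases each, 5′ to 3′ on the strand of the gene, with the match in capitals. Adjoining capitals in MCM6 are 2 overlapping matches. Of the 11 genes, CDT1 and GINS2 were not called lower after UHRF1 depletion plus TSA and the others were, as described further on.
ORC3 (chr6:87590075-87590134, plus strand, 60 to 1 bases before the start): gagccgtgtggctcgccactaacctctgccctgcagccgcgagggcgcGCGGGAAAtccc
CDT1 (chr16:88803728-88803787, plus strand, 61 to 2 bases before the start): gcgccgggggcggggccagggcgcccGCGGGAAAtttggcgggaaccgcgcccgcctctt
MCM3 (chr6:52284883-52284942, minus strand, 200 to 141 bases before the start): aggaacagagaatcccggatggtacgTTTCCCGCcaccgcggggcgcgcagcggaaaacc
MCM6 (chr2:135876496-135876555, minus strand, 112 to 53 bases before the start): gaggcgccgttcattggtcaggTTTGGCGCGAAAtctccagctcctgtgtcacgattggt
GINS2 (chr16:85688955-85689014, minus strand, 60 to 1 bases before the start): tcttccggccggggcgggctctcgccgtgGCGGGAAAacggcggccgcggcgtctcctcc
POLA1 (chrX:24693755-24693814, plus strand, 163 to 104 bases before the start): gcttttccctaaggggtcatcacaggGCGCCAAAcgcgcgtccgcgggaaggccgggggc
POLA2 (chr11:65261883-65261942, plus strand, 79 to 20 bases before the start): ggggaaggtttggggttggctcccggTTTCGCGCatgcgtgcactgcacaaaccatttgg
POLE (chr12:132687343-132687402, minus strand, 60 to 1 bases before the start): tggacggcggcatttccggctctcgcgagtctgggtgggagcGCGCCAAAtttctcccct
RFC3 (chr13:33818068-33818127, plus strand, 81 to 22 bases before the start): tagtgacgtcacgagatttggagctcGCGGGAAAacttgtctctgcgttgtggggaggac
LIG1 (chr19:48170425-48170484, minus strand, 140 to 81 bases before the start): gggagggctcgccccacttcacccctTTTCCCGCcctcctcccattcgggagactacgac
TYMS (chr18:657588-657647, plus strand, 65 to 6 bases before the start): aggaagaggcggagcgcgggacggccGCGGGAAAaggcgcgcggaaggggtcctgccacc
A match is a string of letters and not a measured binding site, and lack of a match in these windows does not show lack of binding. Of the 25 genes with an E2F-type match 20 were called lower with UHRF1 depletion plus TSA, with a median change of -1.52, and of the 25 genes without one 15 were, with a median of -1.32. Among the genes with the largest changes, TYMS, MCM7 and GINS1 had a match, and DBF4, ORC1, ORC6, RRM2 and ASF1B had none. The part of E2F factors in these changes was not tested.

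Replication genes were lowest where UHRF1 depletion and TSA were combined. Against siCONT with mock, 38 of the 56 genes were called lower with the combination and none higher, and 54 had a negative change. Of all genes tested in that comparison 11.1% were called lower and 57.4% had a negative change. The median change of the 56 genes was -1.41 on the log2 scale, against -0.14 over all genes, and single genes ranged from -3.35 for TYMS to 0.04 for CDC7. On 53 of the genes both arrays of the combination lay below both arrays of siCONT with mock, as did those of 47.1% of all genes tested and measured on these 4 arrays. A gene was called at a Benjamini-Hochberg adjusted p under 0.05 over all probes tested in limma and a change of at least 2-fold. With the siCONT arrays of an agent as 1 sample, 30 genes were called lower, beside 5.81% of all genes tested.

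UHRF1 depletion alone gave no call under mock. None of the 56 genes reached 2-fold in limma, and changes ranged from -0.80 for DBF4 to 0.72 for GINS3, with a median of -0.23 against -0.10 over all genes. The median was -0.06 with siUHRF1-1 alone and -0.36 with siUHRF1-2 alone. Of all genes tested 0.9% were called lower here. Without the fold minimum 3 genes passed the adjusted p, all lower, namely DBF4, POLD3 and RPA3, with no share of all genes counted. At an unadjusted p under 0.05 in limma, 15 genes were lower and 1 was higher, and the share of all genes at that threshold was not counted. In this comparison 40 of the 56 genes had a negative change, beside 59.3% of all genes tested. Leaving out the array of siUHRF1-1 with mock called DBF4.

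TSA alone in siCONT cells gave few calls at 2-fold. Of the 56 genes 7 were called lower (ASF1B, TYMS, MCM7, MCM6, DBF4, POLD1 and MCM3), beside 8.32% of all genes tested, and CDC7 was called higher, beside 10.4% of all genes tested. The median change was -0.51, against -0.13 over all genes, and 47 of the 56 changes were negative, beside 57.2% of all genes tested. Without the fold minimum 24 genes passed the adjusted p as lower and 3 as higher, with no share of all genes counted. GINS1, GINS2 and MCM4 missed 2-fold, at -0.96, -0.96 and -0.95. With the siCONT arrays as 1 sample none of the 56 was called, beside 0.305% of all genes tested called lower. The count of 7 became 3 with scaling to detected probes or quantile scaling, and 4 with normexp background correction.

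The same 2 treatments were also compared within each other. UHRF1 depletion under TSA called 17 of the 56 genes lower, beside 2.88% of all genes tested, with a median of -0.87 against 0.01 over all genes. That count rested on the siCONT arrays: it fell without either siCONT TSA array. With the siCONT arrays as 1 sample none of the 56 was called, beside 0.0223% of all genes tested. TSA in UHRF1-depleted cells, which uses no siCONT array in its difference, called 33 of the 56 lower, beside 9.07% of all genes tested. Its median was -1.08 against -0.04 over all genes, and 30 genes were called with the siCONT arrays as 1 sample, beside 7.71% of all genes tested. These comparisons share arrays with each other and with the combination, and are not independent of each other.

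**Figure D1:**
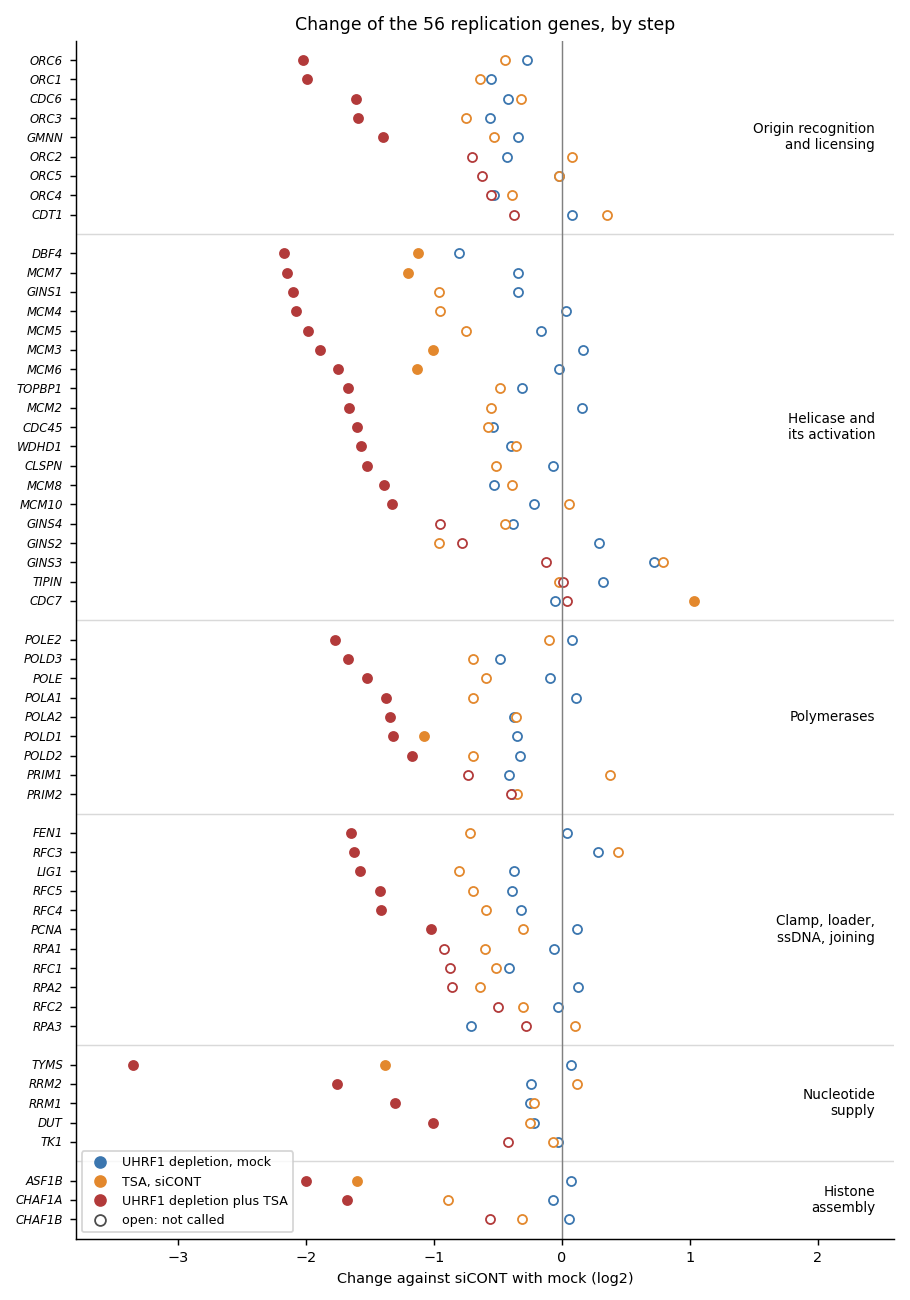
Change in log2 level against siCONT with mock for each of the 56 genes, grouped by step and ordered by the change with UHRF1 depletion plus TSA; blue is UHRF1 depletion with mock, orange is siCONT with TSA, red is UHRF1 depletion plus TSA, and filled points passed the test. The red points lie between -3.35 and 0.04 and 38 are filled, while no blue point is filled and 8 orange points are.

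Of the 9 origin and licensing genes 5 were called lower with the combination, with a median of -1.40. The ORC subunits split: ORC1, ORC3 and ORC6 were called, and ORC2, ORC4 and ORC5 were not, at -0.70, -0.55 and -0.62. ORC6, the smallest ORC subunit, had levels of 0.31 and 0.38 in siCONT with mock, 0.22 and -0.07 after depletion, -0.08 and -0.11 with TSA, and -1.64 and -1.71 with both. Only the 2 arrays of the combination were clearly low. The change was -2.02 ± 0.14 (SE), 4.05-fold, at an adjusted p of 0.000223 (probe at chromosome 16, 46731519 to 46731578, hg19). ORC1, an ATPase subunit whose amount varies through the cell cycle, had levels of 0.47 and 0.41, then 0.30 and -0.52 after depletion, -0.16 and -0.24 with TSA, and -1.63 and -1.46 with both. Its 2 depletion arrays with mock lay far apart, and the groups of single treatments overlapped each other but not the combination. The combined change was -1.99 ± 0.26 (SE), at an adjusted p of 0.00179. ORC3 was lower by less, at -1.59, and was not called in either single treatment (-0.56 and -0.75). The second probe of ORC4 had a change of 0.10 where the first had -0.55, and neither was called.

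The loading factors differed among themselves. CDC6, the ATPase that loads MCM2-7 together with ORC, was dim: its probe did not stand well above background with the combination, so that only a bound can be given. Its levels were -1.93 and -2.41 in siCONT with mock, -2.43 and -2.74 after depletion, and -2.57 and -2.40 with TSA. It was at least 2.58-fold higher in siCONT with mock than with the combination (adjusted p of 0.00446 in the limma fit), and at least 2.07-fold higher in siCONT with TSA than with the combination. Both bounds hold for the main processing only, since the smallest combined change of CDC6 under the alternatives was -0.5. CDT1, the partner of CDC6 in loading, was not called in any of the 6 comparisons and had a change of -0.37 with the combination. GMNN, the inhibitor of CDT1, was called lower at -1.40 ± 0.11 (SE), with levels of 3.60 and 3.64 in siCONT with mock and 2.25 and 2.18 with both treatments. The difference between GMNN and CDT1 was not tested.

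All 6 subunits of the MCM2-7 ring were called lower with the combination, in a narrow band from -1.66 to -2.15. MCM7 had levels of 7.19 and 7.21 in siCONT with mock, 6.91 and 6.81 after depletion, 5.99 and 6.02 with TSA and 5.19 and 4.92 with both. Each group lay below the one before it with no overlap, and the combined change was -2.15 ± 0.13 (SE), or 4.44-fold, at an adjusted p of 0.000174. Its second probe gave -2.38. The levels of MCM3 were 4.89 on both siCONT arrays with mock and 5.03 and 5.08 after depletion, then 3.89 and 3.87 with TSA and 3.04 and 2.97 with both. The change of MCM3 was 0.17 under depletion, -1.01 under TSA and -1.89 with both. Depletion alone left every subunit of the ring between -0.34 and 0.17, and TSA alone called MCM3, MCM6 and MCM7 lower, at -1.01, -1.13 and -1.20. In UHRF1-depleted cells TSA called all 6, from -1.73 to -2.10. MCM8, a paralog used in recombination, was called at -1.39 with the combination, and MCM10, a helicase activator, at -1.33 ± 0.37 (SE), the widest error among the called genes of this step.

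**Figure D2:**
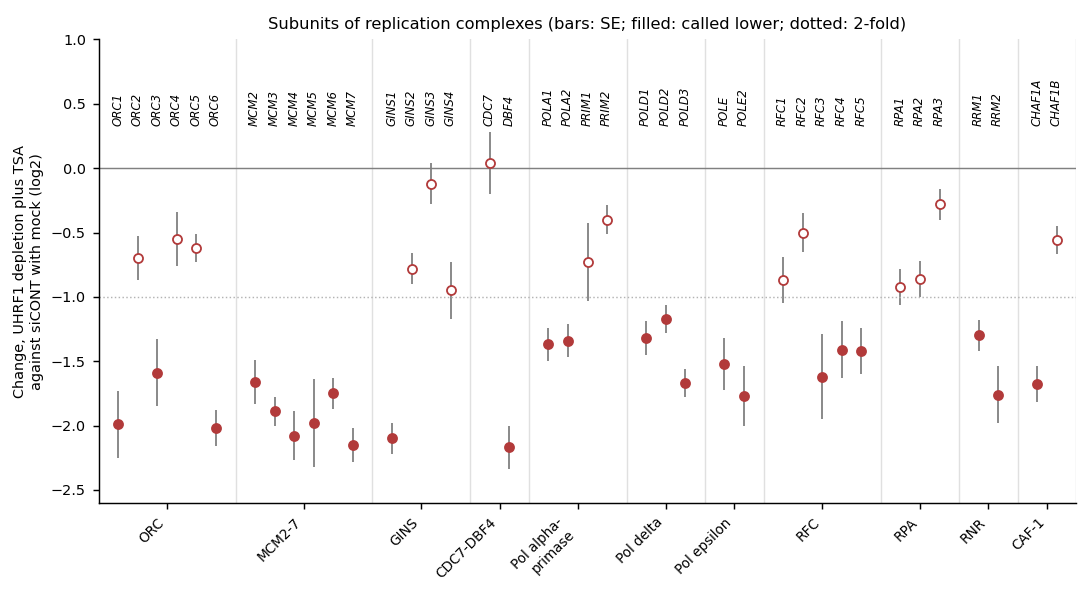
Change in log2 level between siCONT with mock and the combination for the subunits of 11 complexes; points are fitted changes, bars the SE, filled points were called lower and the dotted line marks 2-fold. MCM2-7 subunits lie between -1.66 and -2.15 and all 6 are filled, GINS subunits spread from -2.10 to -0.12 with 1 filled, and no RPA subunit is filled.

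The subunits of the kinase that fires origins differed in their calls. DBF4, the regulatory subunit, had levels of 1.56 and 1.64 in siCONT with mock, 1.00 and 0.60 after depletion, 0.43 and 0.54 with TSA, and -0.65 and -0.49 with both. It was lower in each treated group than in siCONT with mock, without overlap. Its combined change was -2.17 ± 0.17 (SE), 4.50-fold, at an adjusted p of 0.000317 (probe at chromosome 7, 87516653 to 87516712, hg19), and TSA alone called it at -1.12. A second DBF4 probe was too dim to be tested. CDC7, the catalytic subunit, had levels of 1.57 and 1.74, then 1.91 and 1.31 after depletion, 2.67 and 2.71 with TSA, and 1.92 and 1.48 with both. Only the 2 TSA arrays of siCONT stood apart, and they were high. TSA alone raised it by 1.03 ± 0.24 (SE) at an adjusted p of 0.0181, and it is the only one of the 56 genes called higher in any of the 6 comparisons. With the combination it changed by 0.04. That rise was not called with the siCONT arrays as 1 sample, with scaling to the median (0.99), without a filter on dim probes, or without any 1 of the 4 siCONT arrays (0.95 to 1.12).

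Within GINS, the 4-subunit part of the active helicase, GINS1 was called at -2.10 ± 0.12 (SE) while the others were not. GINS1 had levels of 3.98 on both siCONT arrays with mock, 3.72 and 3.57 after depletion, 3.03 and 3.02 with TSA, and 1.95 and 1.82 with both. GINS3 had levels of 2.17 and 2.22 in siCONT with mock, 2.71 and 3.11 after depletion, 3.0 and 2.96 with TSA, and 1.98 and 2.18 with both. Both single treatments were thus high and the combination lay near siCONT with mock. The changes of GINS3 were 0.72 and 0.79 with the single treatments, neither called, and -0.12 with both. GINS2 had changes of 0.29, -0.96 and -0.78, and was called only in TSA against mock within UHRF1-depleted cells (-1.07). GINS4 was not called, at -0.95 with the combination.

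Other factors of the helicase step were called lower with the combination. They were CDC45, which joins GINS and MCM2-7 in the helicase (-1.60), TOPBP1, which helps to bring it there (-1.67), CLSPN, a fork checkpoint mediator (-1.52), and WDHD1, which ties polymerase alpha to the helicase (-1.57). WDHD1 had levels of 2.15 and 2.16 in siCONT with mock and 0.57 and 0.62 with the combination. TIPIN, which protects stalled forks, was the exception, with a change of 0.01 ± 0.21 (SE) and overlapping groups. Its levels were 2.53 and 2.56 in siCONT with mock and 2.87 and 2.25 with the combination.

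Of the 9 polymerase genes 7 were called lower with the combination. Polymerase epsilon, which copies the leading strand, was called in its catalytic subunit POLE (-1.52) and in POLE2 (-1.77). The second probe of POLE was not well above background with the combination and was at least 3.15-fold higher in siCONT with mock (adjusted p of 0.00181 in the limma fit). POLE2 had levels of 0.21 and 0.22 in siCONT with mock, 0.64 and -0.05 after depletion, 0.12 and 0.11 with TSA, and -1.45 and -1.65 with both. The single treatments lay around the control, and only the combination was low, by 3.41-fold at an adjusted p of 0.00167 (probe at chromosome 14, 50122411 to 50122470, hg19). All 3 polymerase delta subunits, of the enzyme that copies the lagging strand, were called: POLD1 at -1.32, POLD2 at -1.17 and POLD3 at -1.67 ± 0.11 (SE). POLD3 had levels of 2.36 and 2.34 in siCONT with mock, 1.89 and 1.84 after depletion, 1.67 and 1.65 with TSA, and 0.65 and 0.70 with both, so that both arrays of each group lay close together and the groups did not overlap. POLD1 was also called with TSA alone (-1.08). In polymerase alpha with primase, which lays the RNA-DNA primer, POLA1 (-1.37) and POLA2 (-1.34) were called, and both primase subunits were not, PRIM1 at -0.73 and PRIM2 at -0.40. The 2 other probes of PRIM2 gave 0.03 and -0.19.

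In the group of clamp, loader, single-strand cover and joining 6 of 11 genes were called lower with the combination. PCNA, the sliding clamp, had levels of 4.88 on both siCONT arrays with mock, 5.12 and 4.87 after depletion, 4.58 and 4.57 with TSA, and 4.07 and 3.64 with both. Its change of -1.02 just passed 2-fold, and its 2 other probes gave -1.05 and -1.10. Of the 5 subunits of RFC, which loads PCNA, RFC3, RFC4 and RFC5 were called, at -1.62, -1.41 and -1.42, and RFC1 and RFC2 were not, at -0.87 and -0.50. RFC3 had levels of -0.10 and -0.20 in siCONT with mock, 0.58 and -0.33 after depletion, 0.18 and 0.39 with TSA, and -1.50 and -2.03 with both. The depletion arrays spanned those of both siCONT groups, the TSA arrays lay above siCONT with mock, and the combination lay below all of them. The combined change of RFC3 had an adjusted p of 0.00871 (probe at chromosome 13, 34410688 to 34410747, hg19), and its second probe gave -0.92 and was not called.

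FEN1, which trims the flaps of Okazaki fragments, and LIG1, which seals them, were called at -1.65 and -1.58. LIG1 had levels of 4.15 and 4.23 in siCONT with mock, 3.79 and 3.86 after depletion, 3.43 and 3.35 with TSA, and 2.50 and 2.72 with both. Each group lay below the one before without overlap. No subunit of RPA, the cover of single-stranded DNA, was called in any of the 6 comparisons by the brighter probe, though the second probes of RPA1 and RPA2 were called lower by TSA in UHRF1-depleted cells, at -1.37 and -1.16. With the combination RPA1 and RPA2 changed by -0.92 and -0.86 and RPA3 by -0.28. RPA3 had levels of 5.68 and 5.63 in siCONT with mock and 5.42 and 5.33 with both, and its lowest levels were those of depletion with mock, 5.05 and 4.83.

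The gene with the largest change of all 56 was TYMS, thymidylate synthase, the enzyme that makes dTMP. It had levels of 5.82 and 5.77 in siCONT with mock, 5.93 and 5.80 after depletion, 4.44 and 4.40 with TSA, and 2.25 and 2.64 with both. The depletion arrays overlapped those of siCONT with mock, the TSA arrays lay lower, and the combination lay lower still. Its changes were 0.07 under depletion, -1.38 ± 0.16 (SE, adjusted p of 0.0019) under TSA and -3.35 ± 0.16 (SE, adjusted p of 0.000107), or 10.2-fold, with both (probe at chromosome 18, 673276 to 673335, hg19). Ribonucleotide reductase, which makes deoxynucleotides, was called in both subunits, RRM1 at -1.30 and RRM2 at -1.76. RRM2, the subunit whose amount limits the enzyme in S phase, had levels of 1.73 and 1.82 in siCONT with mock, 1.64 and 1.43 after depletion, 1.84 and 1.94 with TSA, and -0.31 and 0.33 with both. Neither treatment alone called it, at -0.24 and 0.12, and the siRNAs differed by more under TSA than under mock. DUT, which clears dUTP, was called at -1.01, near the 2-fold limit. TK1, the thymidine kinase of the salvage pathway, was not called in any comparison and changed by -0.42 with the combination, with levels of 7.97 and 7.94 in siCONT with mock and 7.66 and 7.41 with both.

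Of the 3 genes for histone deposition, ASF1B and CHAF1A were called lower with the combination. ASF1B, a chaperone of new histones H3 and H4, had levels of 2.85 and 2.83 in siCONT with mock, 3.06 and 2.76 after depletion, 1.30 and 1.19 with TSA, and 1.11 and 0.57 with both. The TSA arrays were low with or without UHRF1 depletion. TSA alone changed it by -1.60 ± 0.21 (SE), the largest change of the 56 genes under TSA alone, and depletion under TSA by -0.40, which was not called. CAF-1 deposits histones at the fork: its large subunit CHAF1A was called at -1.68, with a second probe at -1.61, and its subunit CHAF1B was not, at -0.56.

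**Figure D3:**
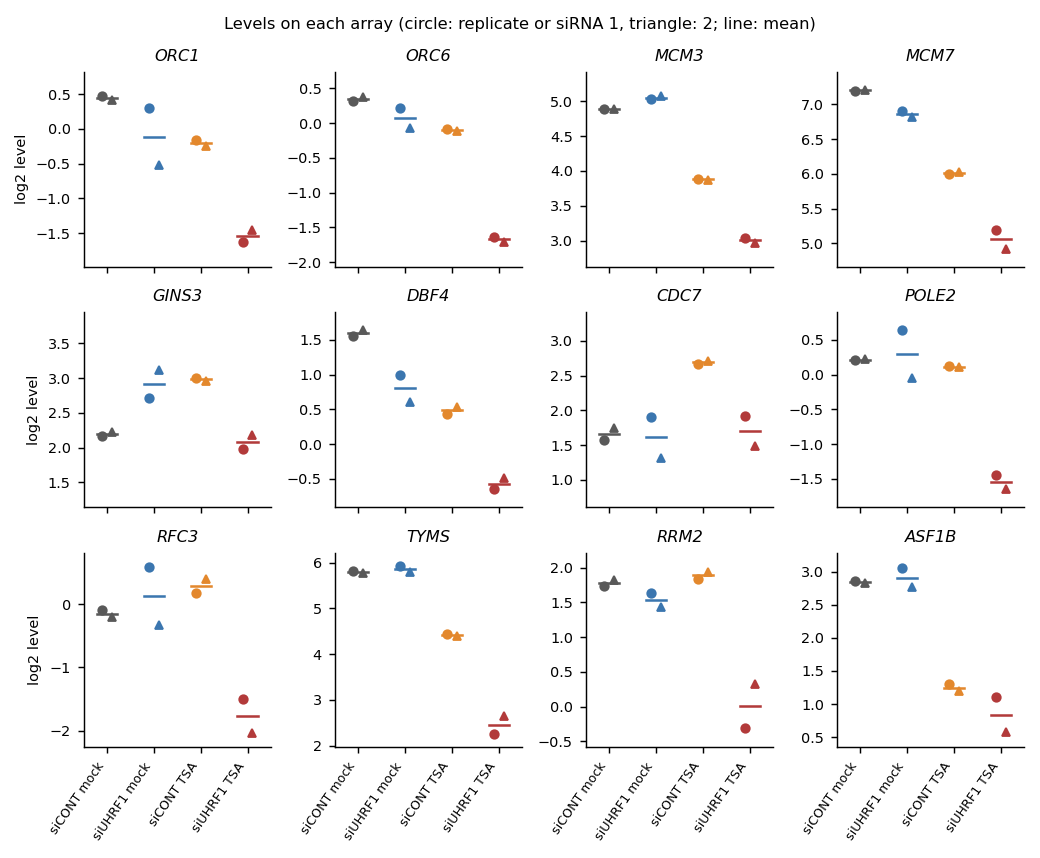
Log2 level relative to the 75th percentile of each array for 12 of the genes on all 8 arrays; circles are replicate 1 or siUHRF1-1, triangles replicate 2 or siUHRF1-2, lines the mean of the 2 arrays, and the vertical axes differ between panels. TYMS falls from a mean of 5.79 to 2.25 and 2.64 with the combination, ASF1B is low in both TSA groups, CDC7 is high only in siCONT with TSA, and GINS3 is high in each single treatment.

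Whether the combination departed from the sum of the single changes was asked with the interaction, which is the depletion change under TSA minus that under mock. It was called negative for 8 of the 56 genes, beside 2.03% of all genes tested, and positive for none. The 8 genes came from all steps but histone deposition: ORC6 (-1.31), MCM2 (-1.28), MCM3 (-1.04), GINS3 (-1.62), POLE2 (-1.75), RFC3 (-2.33), TYMS (-2.04) and RRM2 (-1.64). The median over the 56 genes was -0.61 against 0.08 over all genes, and 51 were negative, beside 45.5% of all genes tested. RFC3 had single changes of 0.28 and 0.44 and a combined change of -1.62, and POLE2 had 0.08, -0.10 and -1.77. For DBF4 the sum of the single changes was -1.92 and the combined change -2.17, an interaction of -0.25 that was not called, and for POLD1 the interaction was 0.11. No interaction was called with the siCONT arrays as 1 sample. The count was also 0 without any 1 of the 4 siCONT arrays, 13 without the siUHRF1-2 array with mock, and 1 (TYMS) with no filter on dim probes. With a replicate block it was 4 (GINS3, MCM3, ORC6 and TYMS), and with the block within the siRNA arm, where the depletion arrays of an siRNA are paired across agents, it was 0.

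**Figure D4:**
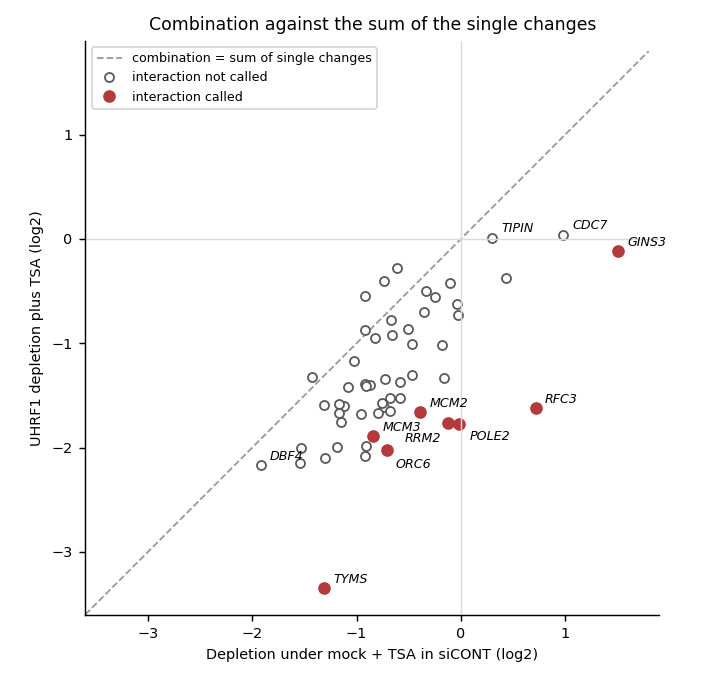
Combined change in log2 level (vertical axis) against the sum of the changes under depletion with mock and TSA in siCONT (horizontal axis) for the 56 genes; the dashed line marks equality, both axes rest on the same siCONT arrays with mock, and filled points are the 8 genes with a called interaction. Points below the line have a negative interaction, and 51 of the 56 lie there, with RFC3 and TYMS at -2.33 and -2.04.

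The 2 siRNAs differed in extent. Under mock, 51 of the 56 genes had a lower level with siUHRF1-2 than with siUHRF1-1, by a median of -0.27, while 46.5% of all probes above background on all arrays were lower and the median probe differed by 0.04. Under TSA 40 of the 56 were lower, by a median of -0.15, beside 54.2% of all probes. The 2 siCONT arrays differed by a median of 0.00 over these genes with mock. Against siCONT with mock, with TSA 54 of the 56 genes had a lower level with both siRNAs, where the median change was -1.29 for siUHRF1-1 and -1.46 for siUHRF1-2, and under mock 29 were lower with both, 8 were higher with both and 19 differed in sign, with medians of -0.06 and -0.36. Each siRNA is a single array per agent, so these differences have no test, and the counts of sign against siCONT were not made over all genes.

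A list of 55 other replication genes, from the same steps, was read in the same way. With UHRF1 depletion plus TSA 28 of the 55 were called lower, beside 11.1% of all genes tested, and none higher, with a median of -1.01. The 3 lowest were POLQ, an end-joining polymerase, at -2.81 ± 0.27 (SE), TICRR, which with TOPBP1 loads CDC45, at -2.21 ± 0.21 (SE), and RNASEH2A, the catalytic subunit of RNase H2, at -2.19 ± 0.12 (SE). UHRF1 depletion alone called none of them lower, beside 0.9% of all genes tested. It called TK2, the mitochondrial thymidine kinase, higher, where 553 of all 16781 genes tested were called higher. The TK2 probe was dim in siCONT with mock, at -3.19 and -2.88, and above background on 1 of these arrays. TSA alone called 6 lower, a share near the 8.32% of all genes tested. It called ASF1A, the paralog of ASF1B, higher, beside 10.4% of all genes tested. Within this list depletion under TSA called 10 lower, beside 2.88% of all genes tested, TSA in depleted cells 28, beside 9.07%, and the interaction 3, beside 2.03%.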

How the data were processed

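Expression was measured on 8 one-colour Agilent SurePrint G3 Human GE v2 arrays. The authors deposited 1 scanner file per array, extracted with Agilent Feature Extraction 10.7, with a linear, background-subtracted intensity per spot. They also deposited a table with the same intensity per spot. The study's methods name GeneSpring GX and do not state its normalization. Probe coordinates are those of the files (hg19).

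Spots of a probe were averaged without control and outlier spots, and no spot was saturated. Intensities were put on the log2 scale, the 75th percentile of each array was subtracted, and lmFit and eBayes of limma 3.58.1 (R 4.3.3) were run with 4 group means over all 8 arrays, which share 1 estimate of the spread (4 residual degrees of freedom, prior 2.17). Tests were two-sided. Tested probes had both arrays of 1 or more of the compared groups well above background, and p-values were adjusted over all such probes. A call needed an adjusted p under 0.05 and 2-fold (interaction: 1 on the log2 scale). A dim probe has a bound, written "at least N-fold": the bright group's mean against a floor, set per array as the lowest detected signal or the probe's own, whichever was higher. The number of arrays limits the precision. The fit was tested on simulated levels.

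Groups came from the labels. The member genes, their steps and the other lists were chosen with earlier results of these data known. The text describes, per step, the 3 lowest genes and the highest with the combination, up to 5 called in each direction in each other comparison, every gene called higher, dim genes and whole complexes. The alternatives were other scalings, normexp (offset 50), the deposited table, other filters, no fold minimum, the methods' t-test, the mean of all probes, siCONT arrays as 1 sample, a replicate block, and each array left out. A leukocyte marker and the summed level of that list are not reported here. Promoter windows are RefSeq's (GRCh38.p14). Figures were drawn with matplotlib 3.10.9 in Python 3.11.15.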

Additional observations from a re-analysis of the deposited data

Results flagged for a closer look

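The change under UHRF1 depletion differed between TSA and mock, by the interaction term of the limma fit over all probes, for 8 of the 56 genes. The difference was -1.31 for ORC6, -1.28 for MCM2, -1.04 for MCM3, -1.62 for GINS3, -1.75 for POLE2, -2.33 for RFC3, -2.04 for TYMS and -1.64 for RRM2, on the log2 scale and with adjusted p from 0.0155 for TYMS to 0.0443 for RFC3. Over all genes tested 2.03% had a called negative interaction. None of the 8 was called with the siCONT arrays of an agent as 1 sample, or without any 1 of the 4 siCONT arrays, and none with the block within the siRNA arm. With a replicate block 4 were called (GINS3, MCM3, ORC6 and TYMS). The changes of GINS3 were 0.72 under depletion and 0.79 under TSA, neither called, and -0.12 with both. The second probe of RFC3 gave an interaction of -1.99, which was not called, and the second probe of CHAF1A gave one of -1.33, which was called, where the first probe gave -0.72 and was not.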

How the results depend on the processing

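Of the 44 changes of single genes followed under the alternatives, only those of CDC7 and RPA3 with the combination changed sign. Neither was called in the main fit, and they ran from -0.36 to 0.29 and from -0.68 to 0.04. The count of 38 genes called lower with the combination lay between 30 and 50 in all alternatives but the methods' t-test with Benjamini-Hochberg adjustment, which gave 25, and between 35 and 39 with single arrays left out. That t-test gave 0 in place of 17 for depletion under TSA and 0 in place of 33 for TSA in depleted cells. With the siCONT arrays as 1 sample the counts for TSA in siCONT, depletion under TSA and the interaction were 0, 0 and 0, and 17 of those 44 changes no longer passed. Without the fold minimum they were 3 for depletion under mock, 24 for TSA in siCONT and 37 for depletion under TSA. The share of all genes without that minimum was not counted. Scaling to the median gave 39 for depletion under TSA, with no share of all genes counted. There it moved the median of all genes by -0.35, to -0.34. It moved the median of all genes by -0.40 with the combination, to -0.54, and that of the 56 genes to -1.81, while scaling to detected probes moved all genes by 0.24, to 0.10, and the 56 genes to -1.17. For TSA in siCONT the count was 3 with scaling to detected probes, 3 with quantile scaling and 4 with normexp, and for depletion under TSA it was 11 with normexp. For the interaction it was 1 without a filter on dim probes. The replicate number did not pair the arrays (correlations of -0.06 to 0.07 between groups, and 0.34 between the depletion groups, which share the siRNAs): a replicate block gave 4 interactions (GINS3, MCM3, ORC6 and TYMS) and within the siRNA arm 0, and gave counts of 38 for the combination, 20 for depletion under TSA, 34 for TSA in depleted cells, 7 for TSA in siCONT and 0 for depletion under mock. With single arrays left out the counts ran from 0 to 1 for depletion under mock, 7 to 7 for TSA in siCONT, 5 to 18 for depletion under TSA, 26 to 40 for TSA in depleted cells and 0 to 13 for the interaction. The causes of these changes were not tested. Dim signal limits CDC6, MCM10, CLSPN and POLE, whose levels lay below the 75th percentile on every array. The smallest combined changes of CDC6 and POLE under the alternatives were -0.5 and -0.77. ORC1, ORC6, POLE2 and RFC3 were also dim with the combination, at -1.63 and -1.46, -1.64 and -1.71, -1.45 and -1.65, and -1.50 and -2.03. Their smallest combined changes under the alternatives were -1.16, -1.24, -1.14 and -0.90. With normexp the interaction was called for MCM4 and not for ORC6.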
